A study of Mus musculus with 4 samples.

Results

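Aminoacyl-tRNA synthetases, the enzymes that load each amino acid onto its transfer RNA, were examined in mouse lenses with a conditional knockout of Celf1, which encodes an RNA-binding protein. The set held 36 genes, 20 for the cytosolic enzymes and 16 for mitochondrial enzymes, whose names end in 2, of 28850 genes named on the array. Their probes were chosen by the gene symbol in the deposited table, and a probe was retained where its signal lay above background (detection p under 0.05) in at least 2 of the 4 samples. Of the 68 probes for these genes, 51 were retained. They represent all 20 cytosolic genes and 12 of the 16 mitochondrial genes, so that 32 of the 36 were tested, among 11519 genes in all. No probe of Aars2, Hars2, Nars2 or Yars2 rose above background on any array.

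RNA from 1 lens per sample was hybridized to Illumina MouseWG-6 v2.0 arrays at postnatal day 6, with 2 samples (A and B) from Celf1 cKO mice and 2 (A and B) from Control mice. The cKO mice carried a germline Celf1 lacZKI allele, a Celf1 flox allele whose exon 5 lies between loxP sites, and the lens Cre line Pax6GFPCre, which per the methods is active in the lens and the pancreatic lineage. The Control mice were Celf1 lacZKI/+, so that the lacZKI allele was shared by both groups, and both groups had a mixed C57BL/6 and FVB background. Nothing states that the lenses of a group came from separate litters, and the p-values measure the spread between these samples.

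Each cell needs a synthetase for every amino acid that its ribosomes use. Most cytosolic enzymes work in the cytosol alone and have a separate, nuclear-encoded counterpart in mitochondria, while Gars and Kars each serve both compartments from 1 gene. Several cytosolic enzymes are held together in a multisynthetase complex with scaffold proteins. In many cell types, transcripts of a subset of the cytosolic enzymes are raised by the transcription factor ATF4 when amino acids run short or when unfolded protein accumulates, alongside genes that make and import amino acids. Lens fiber cells accumulate crystallin protein at very high concentration before they lose their organelles, so that charged tRNA is in heavy demand during fiber formation.

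Signal was background-corrected and quantile normalized, log2 values of the probes of a gene were averaged, and cKO was compared with Control by limma over all genes. A gene was called where the adjusted p was under 0.05, the log2 fold change (cKO over Control) exceeded 0.58 in size, and the mean log2 signal exceeded 4.6. A few facts bear on all the values below. The cKO arrays were the brighter ones, with 16261 and 16925 probes above background against 14542 and 14180 on the Control arrays, so that a difference in genotype and one in brightness cannot be told apart here. Celf1, which the files name Cugbp1, had a mean log2 signal of 7.26 ± 0.36 (SD, n = 2) in cKO and 8.70 ± 0.11 (SD, n = 2) in Control lenses, which is -1.44 ± 0.20 as a log2 fold change (SE, adjusted p = 0.0107, limma). The labels give no sex for the mice, and sex-linked transcripts moved with genotype: Xist, the RNA of the inactive X chromosome, was above background on 0 Control arrays and cKO lenses exceeded Control lenses at least 6.33-fold (adjusted p = 9.38e-04, limma), and Y-linked Ddx3y changed by -3.12 ± 0.57 on the log2 scale (SE, limma adjusted p = 0.0210). The log2 signal of Ddx3y was 6.86 and 4.83 in cKO A and B and 9.06 and 8.88 in Control A and B, so that the cKO lenses also differed from each other. No synthetase gene with a retained probe lies on X or Y. Lens markers were above background (9 of 9), with log2 fold changes below 0 in all 9 (median -0.21) and 2 called reduced (22.2%, beside 11.7% of all genes). Of markers for other cells, 0 of 4 pigment cell, 0 of 4 muscle, 1 of 8 retina, 2 of 3 blood, 5 of 5 vessel and 3 of 5 macrophage genes were above background in at least 2 samples, and the macrophage genes Cd68 and C1qb were called elevated in cKO. Both were above background on 0 Control arrays and passed the detection filter through the cKO group alone. Csf1r, the other macrophage gene tested, was not called, at a log2 fold change of -0.11. The Cd68 call was lost without either Control sample, and the C1qb call without Control B. The part of the sex-linked and marker genes in the synthetase values was not tested. In whole lenses, more cells of a type and more RNA per cell cannot be told apart.

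By the rule for a call, 3 of the 32 tested synthetase genes (9.38%) were called, against 11.7% of all genes tested. All 3 were elevated in cKO lenses: Sars and Aars among the cytosolic enzymes and Iars2 among the mitochondrial ones. Across all genes, 6.02% were called elevated and 5.67% reduced, and 0 synthetase genes were called reduced. The share called was thus close to that of the array as a whole. In 13 of the 32 genes both cKO values lay above both Control values, and in 8 genes both lay below, against 32.6% and 29.7% of all genes. The median log2 fold change was 0.04 over the 32 genes and 0.01 over all genes.

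**Figure D1:**
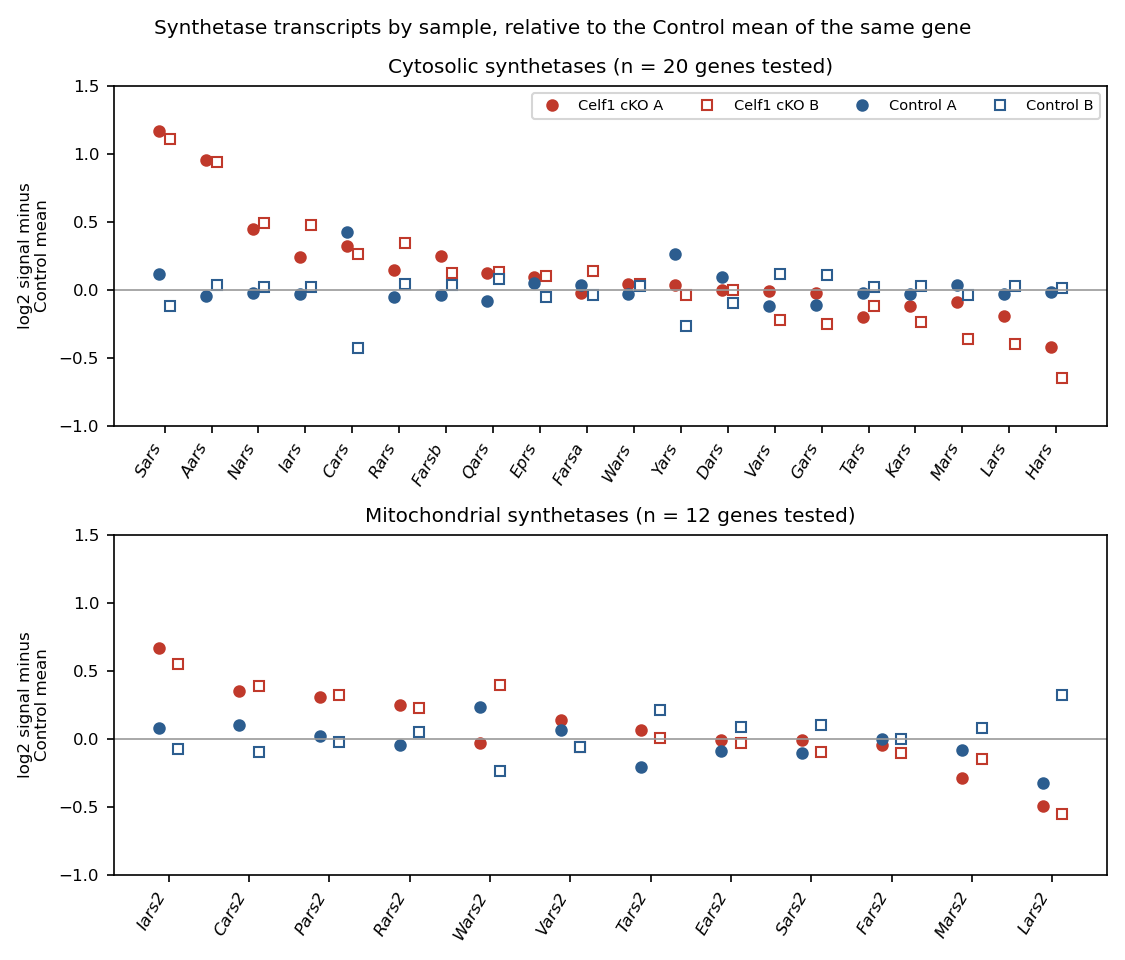
Log2 signal of each tested synthetase gene in each lens, relative to the mean of the Control lenses for the same gene, with cytosolic genes above and mitochondrial genes below. Red circles and open squares are cKO A and B, and blue circles and open squares are Control A and B. The cKO values of Sars, Aars and Iars2 lie clear of the Control values on the left, while those of most other genes lie within about 0.5 log2 units of them.

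Sars, the cytosolic enzyme that charges serine tRNA and also selenocysteine tRNA, showed the largest difference of the set. Its log2 signal was 8.47 in cKO A and 8.41 in cKO B, and 7.41 in Control A and 7.18 in Control B. Both cKO lenses were high and both Control lenses low, with a gap wider than the spread within either group. The log2 fold change was 1.14 ± 0.15 (SE, limma adjusted p = 0.00950), a 2.21-fold elevation with a 95% confidence interval from 0.79 to 1.496 on the log2 scale. The 2 retained probes lie on chromosome 3 (minus strand), at 108230780 to 108230829 and 108554784 to 108554833. These positions are as deposited, with no build named. The probes start at bases 1315 and 1700 of the transcript. On the minus strand the order of the positions is the reverse of this, so the 2 positions are not read as 1 map. Here and below, probe positions are not placed against the promoter coordinates. The probe nearer the 5′ end had a log2 fold change of 1.67 ± 0.24 (SE), with 7.74 and 7.57 in cKO against 6.35 and 5.63 in Control lenses. The other had 0.61 ± 0.16 (SE), with 9.19 and 9.25 in cKO against 8.48 and 8.73 in Control lenses. Both probes were higher in each cKO lens than in each Control lens, but the size of the difference rests more on the first. In the RefSeq promoter table (GRCm38.p6), the 250 bases before the start of Sars, on the minus strand, are shown because they serve as the promoter of the member that differed most.

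Sars, chr3:108445260-108445509, minus strand: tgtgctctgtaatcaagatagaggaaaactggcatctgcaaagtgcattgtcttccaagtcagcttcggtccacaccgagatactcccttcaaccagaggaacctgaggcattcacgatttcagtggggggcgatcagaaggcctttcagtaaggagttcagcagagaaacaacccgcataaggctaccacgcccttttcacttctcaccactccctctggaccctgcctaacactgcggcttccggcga

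Aars, which charges alanine tRNA, was elevated in cKO lenses by nearly the same amount. Its log2 signal was 9.63 in cKO A, 9.61 in cKO B, 8.63 in Control A and 8.71 in Control B. The values within each group lay close together (SD 0.01 and 0.06, n = 2 each) and the groups did not overlap. The log2 fold change was 0.95 ± 0.14 (SE, limma adjusted p = 0.0121), a 1.93-fold elevation with a 95% confidence interval from 0.62 to 1.27 on the log2 scale. It rests on a single probe, on chromosome 8 (plus strand) at 113579397 to 113579446 as the files give it, near the 3′ end of the transcript (from base 3518). In the deposited unnormalized table the same probe read 1005.0 and 1072.9 in cKO A and B and 347.5 and 284.7 in Control A and B, where the cKO arrays were the brighter ones for most genes (median log2 fold change of all genes 0.57 without normalization).

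Iars2, the mitochondrial isoleucine enzyme, was the only mitochondrial member called, and it lay close to the thresholds. Its log2 signal was 7.73 in cKO A, 7.61 in cKO B, 7.14 in Control A and 6.98 in Control B. Both cKO values exceeded both Control values. The log2 fold change was 0.61 ± 0.14 (SE, limma adjusted p = 0.0413), a 1.52-fold elevation with a 95% confidence interval from 0.26 to 0.95 on the log2 scale. Its 2 probes lie on chromosome 1 (minus strand), at 186988886 to 186988935 and 186987783 to 186987832 as the files give them, and start at bases 2902 and 3157 of the transcript. The first had a log2 fold change of 0.93 ± 0.21 (SE) and the second 0.28 ± 0.16 (SE). With the brighter probe alone Iars2 was not called (log2 fold change 0.28, limma adjusted p = 0.269), so that the call rests on the first probe. The promoter of Iars2 is shown beside the others as the one belonging to a mitochondrial enzyme.

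Iars2, chr1:185329402-185329651, minus strand: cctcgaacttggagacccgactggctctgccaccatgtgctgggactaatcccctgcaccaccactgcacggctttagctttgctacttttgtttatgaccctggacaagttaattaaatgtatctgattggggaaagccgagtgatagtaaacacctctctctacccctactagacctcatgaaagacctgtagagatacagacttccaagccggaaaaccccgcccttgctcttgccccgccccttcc

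The counterparts of the called genes in the other compartment were not called. Iars, the cytosolic isoleucine enzyme, had log2 signals of 8.59 and 8.82 in cKO A and B and 8.32 and 8.37 in Control A and B. The groups did not overlap, and the log2 fold change was 0.36 ± 0.15 (SE, limma adjusted p = 0.150). Sars2, the mitochondrial serine enzyme, had 5.54 and 5.44 in cKO A and B and 5.44 and 5.65 in Control A and B. These values overlapped, at a difference of -0.05 ± 0.15 in log2 (SE, limma adjusted p = 0.833) and a 95% confidence interval from -0.41 to 0.30. The difference between the serine enzymes of the cytosol and of mitochondria was not tested. Aars2, the mitochondrial alanine enzyme, was above background on no array.

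Among the 29 members that were not called, log2 fold changes ran from -0.53 to 0.47. Nars, which charges asparagine tRNA, came nearest from above. Its log2 signal was 8.43 and 8.47 in cKO A and B and 7.96 and 7.998 in Control A and B. The groups were tightly separated, by 0.47 ± 0.14 on the log2 scale (SE, limma adjusted p = 0.0644). Hars, which charges histidine tRNA, came nearest from below, with 4.64 and 4.41 in cKO A and B and 5.05 and 5.07 in Control A and B. Its log2 fold change was -0.53 ± 0.15 (SE, limma adjusted p = 0.0598), at a signal above background on 1 cKO array and both Control arrays. Lars2, the mitochondrial leucine enzyme, had 5.47 and 5.41 in cKO A and B and 5.64 and 6.29 in Control A and B. Its Control lenses differed from each other by more than Control A did from either cKO lens, and the difference of -0.52 ± 0.22 in log2 (SE, limma adjusted p = 0.157) did not pass. Without Control A, Lars2 was called reduced (-0.86 in log2, limma adjusted p = 0.0367), and without Control B it stood at -0.21 (limma adjusted p = 0.417). Cars, the cytosolic cysteine enzyme, had 5.32 and 5.26 in cKO A and B and 5.42 and 4.57 in Control A and B. The cKO values fell between the Control values (log2 fold change 0.29 ± 0.27, SE, limma adjusted p = 0.489). Without Control A, Cars was called elevated (0.76 in log2, limma adjusted p = 0.0431), and without Control B its value was -0.14 (limma adjusted p = 0.591). Pars2, the mitochondrial proline enzyme, had 4.91 and 4.93 in cKO A and B and 4.63 and 4.58 in Control A and B. It was above background on both cKO arrays and on 0 Control arrays, which bounds the ratio of the means at 1.13-fold or more. It passed the detection filter through the cKO group alone and was not called, with a 95% confidence interval from -0.0047 to 0.64 in log2 (limma adjusted p = 0.162).

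**Figure D2:**
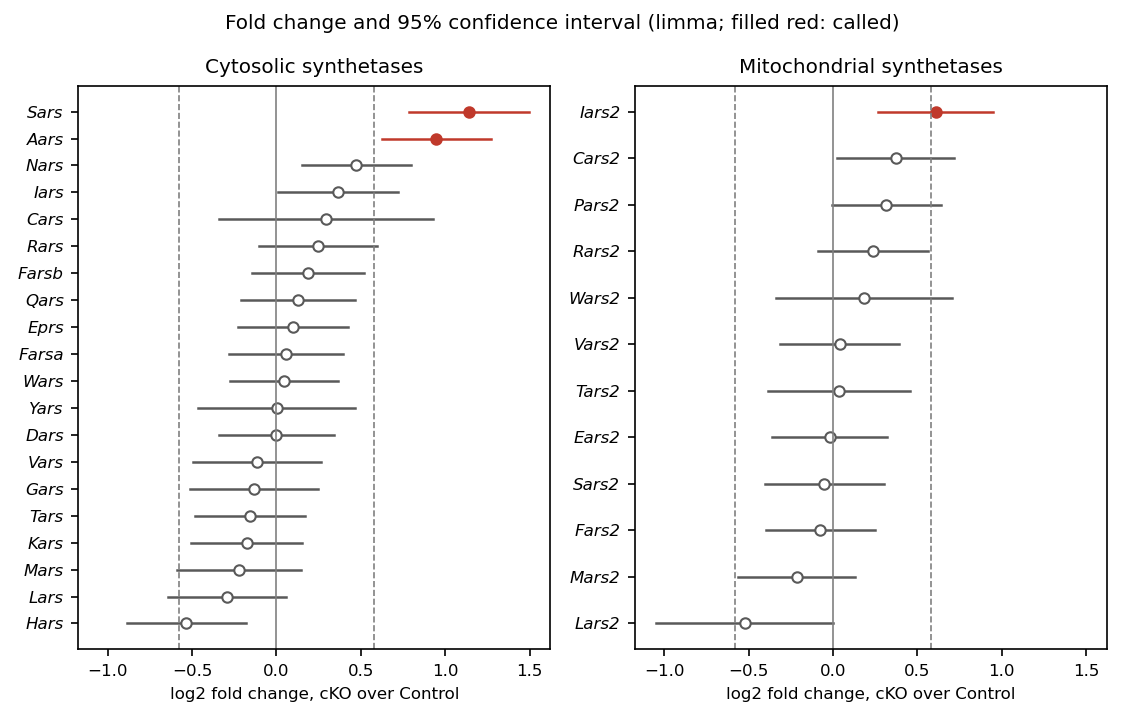
Log2 fold change (cKO over Control) with its 95% confidence interval for the 20 cytosolic and 12 mitochondrial synthetase genes tested, in order of size. Filled red points mark the 3 called genes, and dashed lines mark a log2 fold change of 0.58 in either direction.

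With 2 lenses per group, the standard errors of the members ran from 0.135 to 0.267 on the log2 scale, with the largest in Cars. In 18 of the 32 genes the whole 95% confidence interval lay within 0.58 of 0, so that a change larger than this threshold lies outside the interval for those genes. For the remaining uncalled genes, among them Nars, Hars, Iars and Lars2, the interval reached past the threshold, and these arrays do not settle whether a change of that size was present. An exact permutation test of 2 against 2 samples cannot reach a p under 0.05, so none was used.

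Where a gene had several probes, they did not always move together. Of the 32 tested genes, 15 had more than 1 retained probe, and in 5 of these (Dars, Eprs, Gars, Vars and Wars) the probes differed in sign. Eprs, the enzyme that charges both glutamate and proline tRNA, had the widest difference of these 5. Its probe from base 143, near the 5′ end, had log2 signals of 5.76 and 5.89 in cKO A and B and 6.25 and 6.17 in Control A and B. Its probe from base 1918, which the array design marks as specific to an isoform, had 7.89 and 7.78 in cKO A and B and 7.32 and 7.19 in Control A and B. The groups were apart with both probes, in opposite directions, at log2 fold changes of -0.38 ± 0.15 and 0.58 ± 0.16 (SE), and the gene average of 0.10 hides both. Neither probe passed on its own (limma adjusted p = 0.145 and 0.0560 in the fit over all probes).

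Dars, which charges aspartate tRNA, had -0.27 ± 0.16 (SE) with the probe from base 540 and 0.26 ± 0.16 (SE) with the probe from base 1556. Gars, which charges glycine tRNA, had 0.17 ± 0.16 (SE) with a probe that read 6921.1 and 6973.3 in cKO A and B and 4012.5 and 3550.0 in Control A and B before normalization. A second Gars probe, which read from 54.3 to 62.4 over the 4 arrays, had -0.44 ± 0.19 (SE). In Vars, which charges valine tRNA, the probes ran from -0.37 to 0.12, and in Wars, which charges tryptophan tRNA, from -0.17 to 0.37. The probes of Farsb, the beta subunit of the phenylalanine enzyme, lay closest together of the 15 genes, at 0.18 and 0.20.

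**Figure D3:**
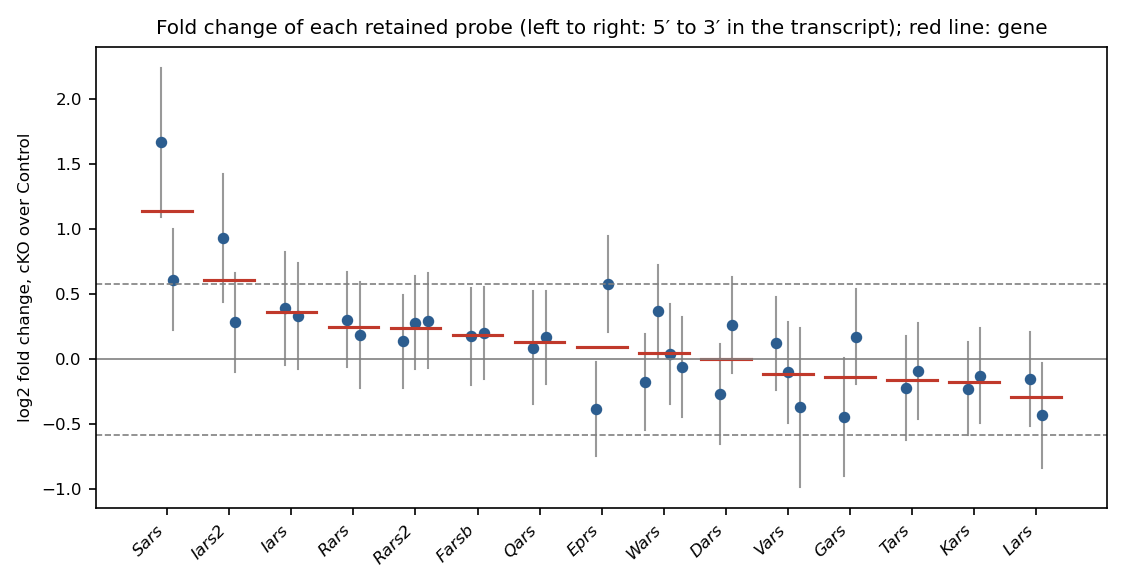
Log2 fold change (cKO over Control) of every retained probe, with 95% confidence intervals, for the 15 synthetase genes with more than 1 retained probe. Probes of a gene are ordered from the 5′ to the 3′ end of the transcript, red lines mark the gene-level value, and dashed lines mark 0.58 in either direction. Both Sars probes lie above 0 but apart from each other, and the Eprs probes lie on opposite sides of 0.

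Of the 20 cytosolic genes, 12 had a log2 fold change above 0 and 8 below, with a median of 0.05. Of the 12 mitochondrial genes, 7 lay above 0 and 5 below, with a median of 0.04. After each gene was centered on its mean over the 4 lenses, the median over the cytosolic genes was 0.04 in cKO A, 0.03 in cKO B, -0.02 in Control A and -0.06 in Control B. Over the mitochondrial genes it was 0.03, -0.02, -0.08 and -0.02 in the same order. The difference between the compartments was not tested.

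The enzymes of the multisynthetase complex were measured in full, and 0 of 8 were called, beside 11.7% of all genes. The 8 enzymes of the complex (Dars, Eprs, Iars, Kars, Lars, Mars, Qars and Rars) had log2 fold changes from -0.29 to 0.36, with a median of 0.05. The 12 cytosolic genes outside the complex held both called cytosolic members (16.7%) and had the same median of 0.05. The scaffold proteins of the complex had values of 0.36 ± 0.16 (SE, limma adjusted p = 0.167) for Aimp1, 0.02 ± 0.15 (SE, limma adjusted p = 0.934) for Aimp2 and 0.66 ± 0.17 (SE, limma adjusted p = 0.0505) for Eef1e1. The last was 7.63 and 7.93 in cKO A and B and 7.01 and 7.24 in Control A and B, and missed the threshold on the adjusted p.

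Synthetases fall into class I and class II by the fold of their catalytic domain, and Eprs, which holds both activities, was counted in neither. Among class I enzymes 1 of 17 tested (Iars2) was called (median log2 fold change 0.04), and among class II enzymes 2 of 14 (Aars and Sars), with a median of 0.02. These shares, and those that follow, are read against 11.7% over all genes. Of the 12 cytosolic synthetases listed from general knowledge as ATF4 targets, 2 (Aars and Sars) were called elevated and 0 reduced, with a median of 0.07 and a range from -0.29 to 1.14. Among the other 8 cytosolic genes 0 were called, with a median of 0.03. Of the 12 genes, 8 had a log2 fold change above 0 and 4 below. No difference between these groups of enzymes was tested.

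The sequence that ATF4 binds together with C/EBP proteins was looked for in the promoters of the members. The letters searched were TGATGNAA on either strand, within the 250 bases before and 50 bases after each start in the RefSeq promoter table (GRCm38.p6). Of all 32851 promoters in the table, 3.97% held it. Of the members, 12 cytosolic and 14 mitochondrial genes had an entry that was used, and 4 of the cytosolic and 0 of the mitochondrial genes held a match. The called genes Sars and Iars2 were among those searched, and each held 0 matches. The other members, 8 cytosolic and 2 mitochondrial, were not used in this search, so that the counts do not cover either set in full. The 4 matches, in capitals with 11 bases on each side, read in the direction of the gene:

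Gars, chr6:55037960-55037989, plus strand: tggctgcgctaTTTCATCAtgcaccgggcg
Iars, chr13:49682126-49682155, plus strand: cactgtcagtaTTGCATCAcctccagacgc
Tars, chr15:11399655-11399684, minus strand: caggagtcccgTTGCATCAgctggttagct
Yars, chr4:129189895-129189924, plus strand: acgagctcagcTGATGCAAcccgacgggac

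Counted from the first base of the gene, the matches begin at -30 in Gars, 8 in Iars, -15 in Tars and 4 in Yars. Their log2 fold changes were 0.36 in Iars, 0.00 in Yars, -0.14 in Gars and -0.16 in Tars. Log2 signals ran from 4.71 to 4.94 in Tars and from 4.41 to 4.94 in Yars. The lowest detected signal of an array was 4.56 to 4.76, so that these 2 values are limited by background. Yars was above background on 1 Control array. The Gars value averages a bright probe at 0.17 with a dim one at -0.44. A match is a description of the sequence and not evidence that a factor binds there.

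The 18 partner genes listed were scaffolds, mitochondrial amidation and formylation enzymes, editing factors, elongation factors and synthetase-like genes. Of these, 17 were tested, 0 were called elevated and 1 reduced (5.88%, beside 11.7% of all genes), and the median log2 fold change was 0.02. Without normalization between arrays, 10 were called elevated and 0 reduced, beside 5658 and 133 of all 11519 genes. When the median of the probes detected on all 4 arrays was equalized, 2 were called elevated and 2 reduced, beside 669 and 2025 of all genes. In the main processing only Aarsd1, an editing protein that removes serine wrongly attached to alanine tRNA, was called. Its log2 signal was 6.30 and 6.13 in cKO A and B and 6.92 and 7.57 in Control A and B. Both cKO lenses were below both Control lenses, and the log2 fold change was -1.03 ± 0.22 (SE, limma adjusted p = 0.0333). This is the opposite direction to Aars and Sars. Under 21 alternative settings of the processing, Aarsd1 was called in 13. Its log2 fold change stayed below 0 in all 21, from -1.37 to -0.26, the latter without normalization between arrays. The call was lost when cKO A, cKO B or Control B was left out (limma adjusted p = 0.0874, 0.170 and 0.0922).

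Genes known to respond to amino acid shortage were listed beside the synthetases. Of 30 such genes, 26 were tested, with 9 called elevated and 2 reduced (42.3%, beside 11.7% of all genes) and a median of 0.32 in log2 fold change. The list was chosen with earlier results of these data known, so its count is a description, and no difference between lists was tested. Of its elevated genes, Chac1, Trib3 and Slc7a3 were above background on 0 Control arrays and passed the detection filter through the cKO group alone. Without normalization between arrays, 19 genes of the list were called elevated and 1 reduced, beside 5658 and 133 of all 11519 genes. With a test against the fold threshold, 3 were called elevated and 0 reduced, beside 38 and 46 of all genes. With each sample left out in turn, 2 to 10 of its genes were called elevated and 0 to 2 reduced. Chac1, a glutathione-degrading enzyme induced by the ATF4 pathway, had log2 signals of 8.16 and 7.67 in cKO A and B and 4.43 and 4.39 in Control A and B. It was above background on 0 Control arrays so that cKO lenses exceeded Control lenses at least 8.99-fold (limma adjusted p = 9.38e-04). Ddit3, which encodes the stress transcription factor CHOP, was 8.94 and 8.63 in cKO A and B and 5.76 and 5.81 in Control A and B. This was an elevation of 2.999 ± 0.16 in log2 (SE, limma adjusted p = 9.38e-04). The value averages 2 probes, and with the brighter probe alone it was 3.79. Ddit4, an inhibitor of the growth kinase mTORC1, was 9.07 and 9.13 in cKO A and B and 7.44 and 7.13 in Control A and B, with 1.81 ± 0.16 (SE, limma adjusted p = 0.00336). The list was not of 1 direction, since Phgdh, the first enzyme of serine synthesis, and Ppp1r15a, a phosphatase subunit of the stress response, were called reduced.

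**Figure D4:**
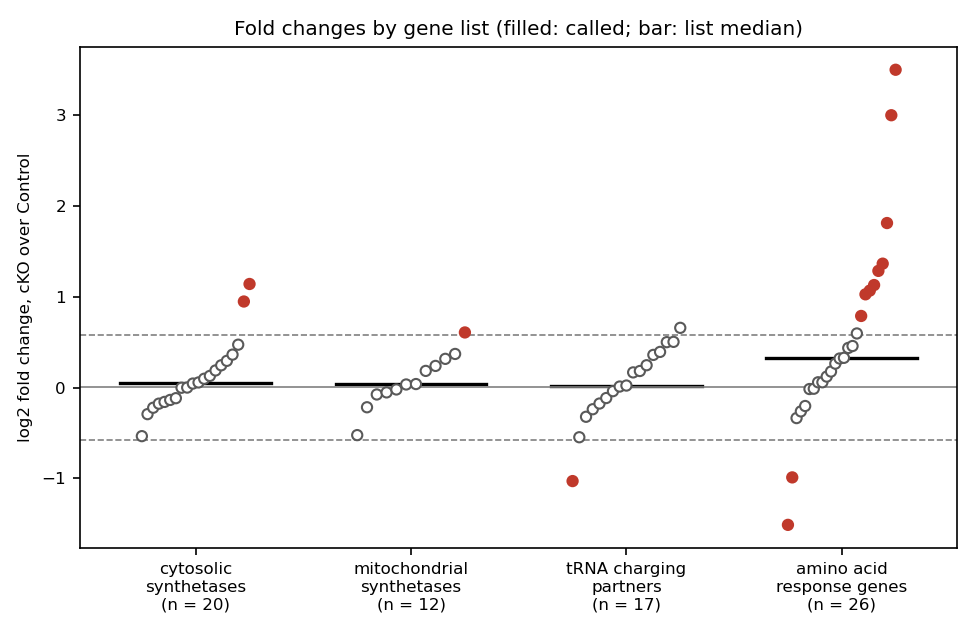
Log2 fold change (cKO over Control) of each tested gene in 4 lists: 20 cytosolic synthetases, 12 mitochondrial synthetases, 17 tRNA charging partners and 26 amino acid response genes. Filled red points are called, black bars are list medians, the thin line is the median of all genes, and dashed lines mark 0.58 in either direction. Called genes number 3 among the synthetases and 1 among the partners, and 9 called amino acid response genes lie above the upper line and 2 below the lower one.

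The called members kept their direction under every alternative run, but their calls depended on the processing. Sars, Aars and Iars2 had log2 fold changes above 0 under all 21 alternatives, from 0.61 to 1.93 for Sars, 0.88 to 1.81 for Aars and 0.28 to 1.40 for Iars2. Each was called under 16, 16 and 11 of these. With each sample left out in turn, Sars was called without cKO A and without Control A, Aars without Control A, and Iars2 under none. With cKO B or Control B left out, no synthetase gene was called, and all genes called fell from 1346 to 170 and 113. Where arrays were not normalized to each other, the median of all genes shifted to 0.57 and 19 of the 32 synthetase genes were called elevated, beside 5658 of all 11519 genes. When the median of the probes detected on all 4 arrays was equalized, it shifted to -0.19, and Hars, Tars, Yars, Lars2 and Mars2 were called reduced beside the same 3 elevated genes, where 2025 of all 11519 genes were called reduced and 669 elevated. Relative to the median of all genes, Sars, Aars and Iars2 were higher in cKO lenses under each of these scalings. Of the 29 uncalled members, 8 kept their sign under every alternative that tested them, Eprs, Farsb, Iars, Nars, Qars, Rars and Rars2 above 0 and Hars below 0, and 21 changed sign under at least 1.

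**Figure D5:**
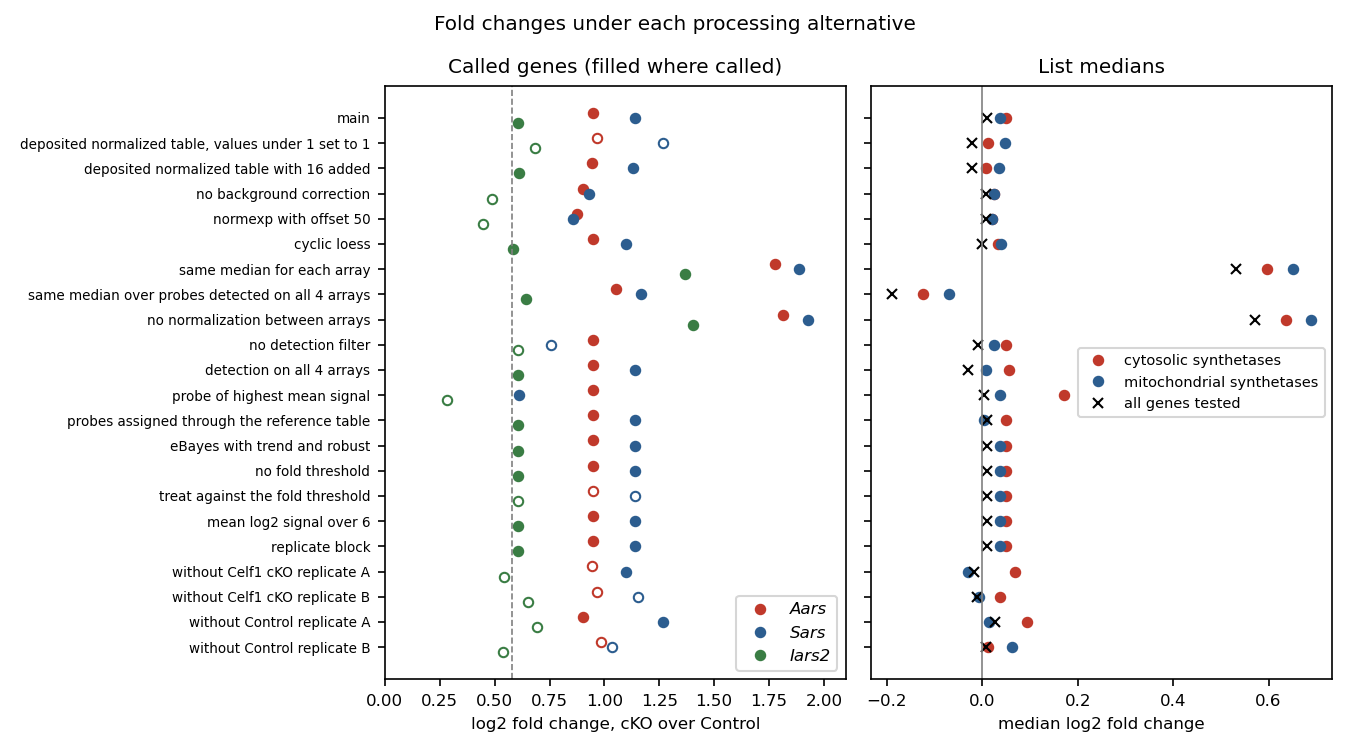
Left, log2 fold change (cKO over Control) of Aars, Sars and Iars2 under the main processing and each of the 21 alternatives, filled where the gene was called; the dashed line marks 0.58. Right, median log2 fold change of the cytosolic and mitochondrial synthetases and of all genes tested under the same settings. The 3 genes stay above 0 throughout, and the medians of the synthetases move with the median of all genes when the scaling between arrays is changed.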

How the data were processed

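Signal of 4 lens RNA samples was analyzed. The authors deposited unnormalized signal intensity, normalized signal intensity (rank invariant, per the deposited headers) and detection p-values. The deposited p-value ranks a probe against negative control beads. The number of arrays limits the precision of the fold changes. Of 45281 probes, 18 lines with shifted cells were left out. Unnormalized intensity was background-corrected and quantile normalized by the neqc function (limma 3.58.1 in R 4.3.3; offset 16). Probes above background (p under 0.05) in at least 2 samples were retained (16262), and the log2 values of the probes of a gene were averaged. Samples were grouped by the genotype label. The comparison of groups used limma (lmFit, eBayes) over 11519 genes, with Benjamini-Hochberg adjustment. Genes were called at an adjusted p under 0.05, a log2 fold change over 0.58 in size and a mean log2 signal over 4.6, as in the study's methods. The signal threshold was set on the study's own scale, which may differ from the scale with an offset used here. Of the tested members, 0 had a mean signal at or under it. The authors' count model was not applied to intensities.

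Members' probes follow the symbol in the deposited table; other probes were named through a RefSeq table (GRCm38.p6). 1 promoter sequence is not reported here. Where all arrays of a group were at background, a bound is given: the brighter group's mean against the higher, per array, of the gene's own value and the lowest signal among detected probes. The members and lists were chosen with earlier results of these data known. Members that were called, their counterparts in the other compartment, members whose probes disagree in sign and members whose call changes under an alternative are named. So are Celf1, Xist, Ddx3y, called partner genes and the 3 called amino acid response genes of largest change. Eef1e1, Aimp1, Aimp2, Phgdh, Ppp1r15a, Cd68, C1qb, Csf1r, Farsb and Pars2 were named after their values were seen. The alternatives covered the table, background correction, scaling, filters, probe rules, variance model, thresholds, the replicate letter and each sample left out. Python version 3.11.15 was used for tables.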

Additional observations from a re-analysis of the deposited data

How the results depend on the processing

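The count of all genes called (1346) moved with several settings. It was 7 with the deposited normalized table and values under 1 set to 1, against 1191 with the same table and 16 added to each value. It was 726 with normexp at an offset of 50, 5419 with the same median for each array, 2694 with the same median over probes detected on all 4 arrays, 5791 without normalization between arrays, 155 without a detection filter, 84 with a test against the fold threshold (treat), 880 with a mean log2 signal over 6, and 113 to 1301 with each sample left out. The share of these calls that were elevated was 51.5% in the main processing, 97.3%, 24.8% and 97.7% under those 3 scalings, and 71.4% of the 7.

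Cytosolic synthetase calls (2) became 0 with the deposited table and values under 1 set to 1 and with treat, stayed at 2 with 16 added to the deposited values, became 1 without a detection filter, 11 and 12 with the same median for each array and without normalization, 5 with the same median over detected probes, and 0 to 3 with each sample left out (the third, Cars, without Control A). Mitochondrial calls (1) stayed at 1 with 16 added to the deposited values and became 0 with values under 1 set to 1, without background correction, with normexp, without a detection filter, with the brightest probe and with treat, 7 under each of the same-median and unnormalized settings, 3 over detected probes, and 0 to 1 with each sample left out (Lars2, reduced, without Control A). Beside these 0 counts, 7 of the 32 members had an unadjusted p under 0.05 in the main limma fit, against 3671 of all 11519 genes.

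Relative to all genes, the cytosolic median (0.04) was 0.0165 without background correction, 0.0140 with normexp, 0.0652 under each of the 3 scalings, 0.0863 with detection on all 4 arrays, 0.167 with the brightest probe, and 0.00521 to 0.0858 with each sample left out. The mitochondrial median (0.03) was 0.0692 with the deposited table and values under 1 set to 1, 0.118 to 0.119 under the 3 scalings, and -0.0120 to 0.0553 with each sample left out.

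Of the 29 members not called in the main processing, 8 kept their sign under every alternative that tested them. Some were called against the sign of their main value, or from near 0, under the 3 scalings: with the same median for each array, Dars (0.80), Ears2 (0.67) and Fars2 (0.75) were called elevated; without normalization, Dars (0.84), Ears2 (0.71), Fars2 (0.78) and Kars (0.58); over detected probes, Yars (-0.60) was called reduced. The 19 synthetases called elevated without normalization were Aars, Cars, Dars, Eprs, Farsb, Iars, Kars, Nars, Qars, Rars, Sars, Wars, Cars2, Ears2, Fars2, Iars2, Rars2, Tars2 and Vars2, and all but Kars were called with the same median for each array. The cause of these changes was not tested. The replicate letters did not pair the samples (correlation of A minus B between the groups, -0.01). With the letter as a replicate block, all genes called numbered 1761, cytosolic calls 2 and mitochondrial calls 1, and the medians relative to all genes stayed at 0.04 and 0.03.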
